A study of Mus musculus with 2 samples.

Results

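The cells described here were 183 of 11355 mandibular epithelial cells at E12.0 (1.61%, 1.39 to 1.86%) that carried transcripts of Irx1 and Ntrk2 and none of Fst or Enc1. They were selected on raw UMI counts by 4 conditions (a UMI is a molecular barcode that lets each captured transcript count once): at least 1 UMI of Irx1, at least 1 of Ntrk2, none of Fst and Enc1, and at most 1 of Shh. Irx1 encodes an Iroquois homeobox transcription factor, and Ntrk2 the receptor tyrosine kinase TrkB, which binds the neurotrophins BDNF and NT-4. Fst encodes follistatin, a secreted inhibitor of activin, Enc1 an actin-binding kelch protein, and Shh the hedgehog ligand produced at dental signalling centres. The 5 genes define the cells, so their levels are given as a description only.

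Teeth begin as thickenings of the oral ectoderm that invaginate into the mesenchyme. A small group of non-dividing cells within the tooth bud, the initiation knot, secretes SHH, FGF, BMP and WNT ligands, while the surrounding basal cells divide. Between the incisor and the molar lies the diastema, which forms no functional tooth in the mouse. The study profiled the epithelium to find which populations make up this territory.

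Mandibular arch epithelia of 6 pooled K14Cre;R26mT/mG embryos aged E12.0 were peeled from the mesenchyme, dissociated, sorted for GFP and sequenced as 1 10x Genomics library. In this genotype, Cre driven by the keratin 14 promoter switches a reporter from membrane tdTomato to membrane GFP in epithelial cells, so only cells with past keratin 14 promoter activity could enter. No treatment was given. A second library held unsorted cells of the E9.5 mandibular arch of 8 pooled embryos with the same genotype label, and both libraries together had 25956 barcodes, of which 51 sequences occurred in both. With 1 library per stage there was no replicate, cells of 1 library are not replicates, and no test was made. Intervals are 95% intervals from counting error alone (exact Poisson for levels, Clopper-Pearson for shares, exact conditional binomial for ratios).

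The selection narrowed in steps. Of the 11355 kept cells, 1617 had an Irx1 UMI and 511 had UMIs of both Irx1 and Ntrk2. Fst and Enc1 were both at 0 in 186 of these 511, and 3 of the 186 were then dropped for more than 1 Shh UMI. Most members sat near the lower edge of the rule: 103 of 183 had exactly 1 Irx1 UMI, 102 had exactly 1 Ntrk2 UMI, 59 had 1 of each, and 37 had at least 2 of each. The highest counts in a member were 6 Irx1 UMIs and 4 Ntrk2 UMIs. Shh was at 0 in 177 members and at 1 in the other 6.

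Members had a median of 7304 UMIs (2629 to 19415) and 3070 genes, against a median of 6334 UMIs in the 11172 other kept cells. A cell of the median member depth with no UMI of a gene could still hold up to 411 CPM of it (3 counts over its total), where CPM is UMIs per 1000000 UMIs. Mitochondrial transcripts took a median of 5.58% of UMIs in members and 5.50% in the others. Scrublet, a doublet caller that simulates mixed cells, marked 15 members (8.20%, 4.66 to 13.2%) and 5.78% of the other cells as doublets, and these were kept. Both sexes contributed: 92 members had a Y-linked UMI, and 64 had Xist UMIs and no Y-linked one.

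Members were compared with 2 sets of cells: all 11172 other kept cells, and the 985 cells with Irx1 and at least 1 UMI of Fst or Enc1, called Irx1+ Fst/Enc1+ cells here (median 7805 UMIs) and themselves among the 11172. Because that second set was free to lack Ntrk2, 317 of its cells that also had Ntrk2 and at most 1 Shh UMI served as a matched set (median 8230 UMIs). Called doublets made up 10.9% of the Irx1+ Fst/Enc1+ cells and 11.7% of the matched set. Levels are UMIs summed over a group of cells as CPM. A gene was examined when the mean of both group levels was at least 10 CPM, and called raised or lowered when the ratio of levels, with 5 CPM added to each, was at least 1.5 either way and at least 15% of the cells of the higher group had a UMI. Against all other cells, 8554 genes were examined, of which 89 were raised (1.04%) and 159 lowered (1.86%). Against the Irx1+ Fst/Enc1+ cells, 8521 genes were examined, of which 50 were raised (0.587%) and 92 lowered (1.08%). The interval of the ratio left out 1 for each of these genes, and the median of all examined genes lay at 0.0043 and 0.0024 on the log2 scale. When every cell was thinned to 4100 UMIs, 50 of the 89 raised and 83 of the 159 lowered genes met the criterion again, and against the Irx1+ Fst/Enc1+ cells 16 of 50 and 25 of 92 did. Of the genes lost, 27 of 39, 48 of 76, 14 of 34 and 51 of 67 in the same order still had a ratio past 1.5 and missed the criterion in the share of cells with a UMI or in the mean level.

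The sorted cells carried epithelial transcripts as labelled. Epcam was found in 150 of 183 members at 365 CPM (335 to 397), and keratin 14 in 179 members at 816 CPM (771 to 864). Of the 8 mesenchymal markers, Twist1, Twist2, Prrx1, Prrx2 and Col3a1 were at 0 in every member, and the list summed to 17.7 CPM (11.6 to 26.0) against 9.52 CPM in the other cells, and the collagen gene Col1a2, the most abundant, gave 22 of the 26 UMIs. The 11 neuronal and glial markers summed to 52.5 CPM against 56.1 CPM, led by the receptor gene Erbb3 at 37.5 CPM, and the glial genes Sox10 and Foxd3 were at 0. Of the endothelial and blood markers 7 of 8 were at 0, the hemoglobin genes among them, and 4 UMIs of Pecam1 were all that remained.

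The rule genes were highest where the rule placed them. Irx1 stood at 206 CPM (183 to 231) in members and 228 CPM (218 to 239) in Irx1+ Fst/Enc1+ cells, against 33.9 CPM in all other cells. Ntrk2 stood at 199 CPM (176 to 223) in members, at 177 CPM in the matched set, where it was also required, and at 60.9 CPM in the Irx1+ Fst/Enc1+ cells as a whole. Fst reached 229 CPM and Enc1 128 CPM in the latter. In cells with UMIs of both connexin genes Gjb2 and Gjb6, which served as a background, 3.34% had an Irx1 UMI and 1.58% an Ntrk2 UMI at a median of 6829 UMIs. Counting at the 3′ end of the gene did not separate full-length Ntrk2 from its truncated receptor isoforms.

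To ask how far the absence of Fst and Enc1 holds beyond the UMIs that defined it, each cell's UMIs were divided at random into 2 parts of about equal size, the rule was applied to the first, and the rule genes were read in the second, which the rule had not used. The first part picked 100 cells. In the second part, Irx1 was found in 39 of these 100 cells at 141 CPM (108 to 182), against 36.7 CPM in the cells not picked, and Ntrk2 in 36 cells at 115 CPM (85.4 to 153), against 20.3 CPM. Fst reappeared in 22 of the 100 cells at 75.4 CPM (51.6 to 106), and Enc1 in 11 cells at 33.0 CPM (18.0 to 55.3). Those levels lay close to those of all cells not picked, 61.8 CPM (59.3 to 64.3) of Fst and 29.7 CPM (28.0 to 31.4) of Enc1. They lay well below the 279 CPM (257 to 302) of Fst and 131 CPM (116 to 147) of Enc1 in cells picked as Irx1+ Fst/Enc1+ in the first part. Cells picked as Irx1+ only, without Ntrk2, Fst and Enc1 in the first part, had 63.6 CPM of Fst (51.6 to 77.6) and 51.8 CPM of Enc1 (41.0 to 64.6) in the second. In these 100 cells the absence of both transcripts thus held for the part counted and not for the part left out. There Fst and Enc1 were present at levels near those of the cells not picked. The 183 members were chosen on all their UMIs, so picked cells with Fst or Enc1 in the second part were not members.

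**Figure D1:**
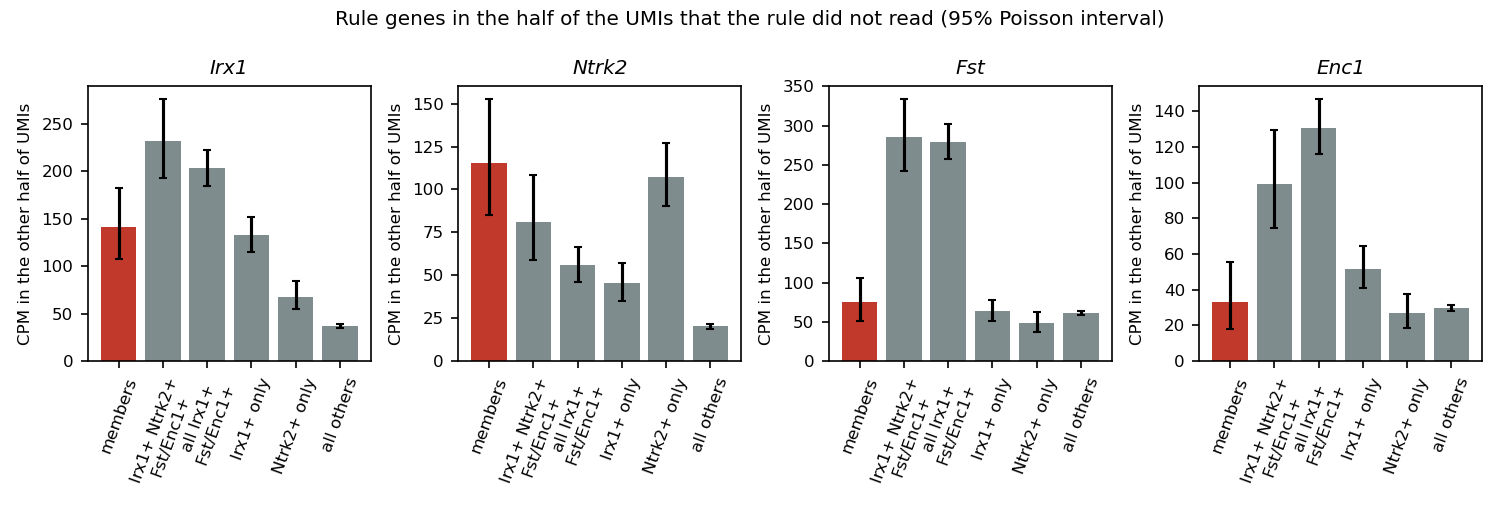
Level in CPM (y axis, linear) of Irx1, Ntrk2, Fst and Enc1 in the second random part of each cell's UMIs, for 6 groups of cells chosen on the first part (bars, with 95% Poisson intervals; red, members). Irx1+ only and Ntrk2+ only cells have the named gene without the other, neither Fst nor Enc1, and at most 1 Shh UMI. The red cells met the rule on the first part alone, so they are not the same set as the members. Their Fst, at 75.4 CPM, sits near the cells not picked at 61.8 CPM. It lies far below the Irx1+ Fst/Enc1+ cells at 279 CPM.

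The 3 other marker genes proposed for the population were Fgf8, Slitrk6 and Gpm6b. They were chosen on these cells, so their levels describe the population and do not test it. Fgf8, a growth factor of the oral and dental ectoderm, had 130 UMIs in 81 members. Its level of 88.7 CPM (74.1 to 105) was the highest among the 6 groups of cells defined by the rule genes. It was 3.75-fold higher (3.11 to 4.48) than in all other cells and 1.99-fold higher (1.61 to 2.43) than in Irx1+ Fst/Enc1+ cells. Against the matched set the ratio was 1.67 (1.31 to 2.12), again past the size criterion. Cells with Irx1 only, at 71.2 CPM (62.1 to 81.1), and with Ntrk2 only, at 56.8 CPM (48.4 to 66.2), came next. The interval of cells with Irx1 only overlapped that of members and that of cells with Ntrk2 only. With every cell thinned to 4100 UMIs, an Fgf8 UMI was seen in 30.2% of members, 15.8% of Irx1+ Fst/Enc1+ cells and 8.09% of all others, and unthinned in 44.3%, 24.0% and 11.5%. Of the Gjb2 Gjb6 cells 2.72% had one.

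Slitrk6 encodes a transmembrane protein with leucine-rich repeats. It stood at 43.0 CPM (33.0 to 55.0) in 47 members, 2.73-fold (2.08 to 3.51) above all other cells and 1.05-fold (0.791 to 1.38) above Irx1+ Fst/Enc1+ cells, which did not meet the criterion. Gpm6b, a membrane glycoprotein of the proteolipid family, stood at 25.2 CPM (17.8 to 34.8) in 29 members. It was 2.47-fold (1.72 to 3.43) above all other cells, while its 35.2 CPM in Irx1+ Fst/Enc1+ cells lay above the members at a ratio of 1.39 (0.989 to 2.02). Slitrk6 and Gpm6b stood at 25.7 and 21.6 CPM in cells with Irx1 only, at 15.8 and 10.9 CPM in cells with Ntrk2 only, and at 10.1 and 4.01 CPM in cells with none of the 4 genes. In matched-set cells with 1, 2 to 3 and 4 or more Fst and Enc1 UMIs, Slitrk6 stood above members, at 45.5, 53.8 and 68.7 CPM. Gpm6b stood at 25.0, 45.9 and 37.9 CPM in the same order. Among the proposed markers, Fgf8 was the 1 that met the criterion in both comparisons.

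**Figure D2:**
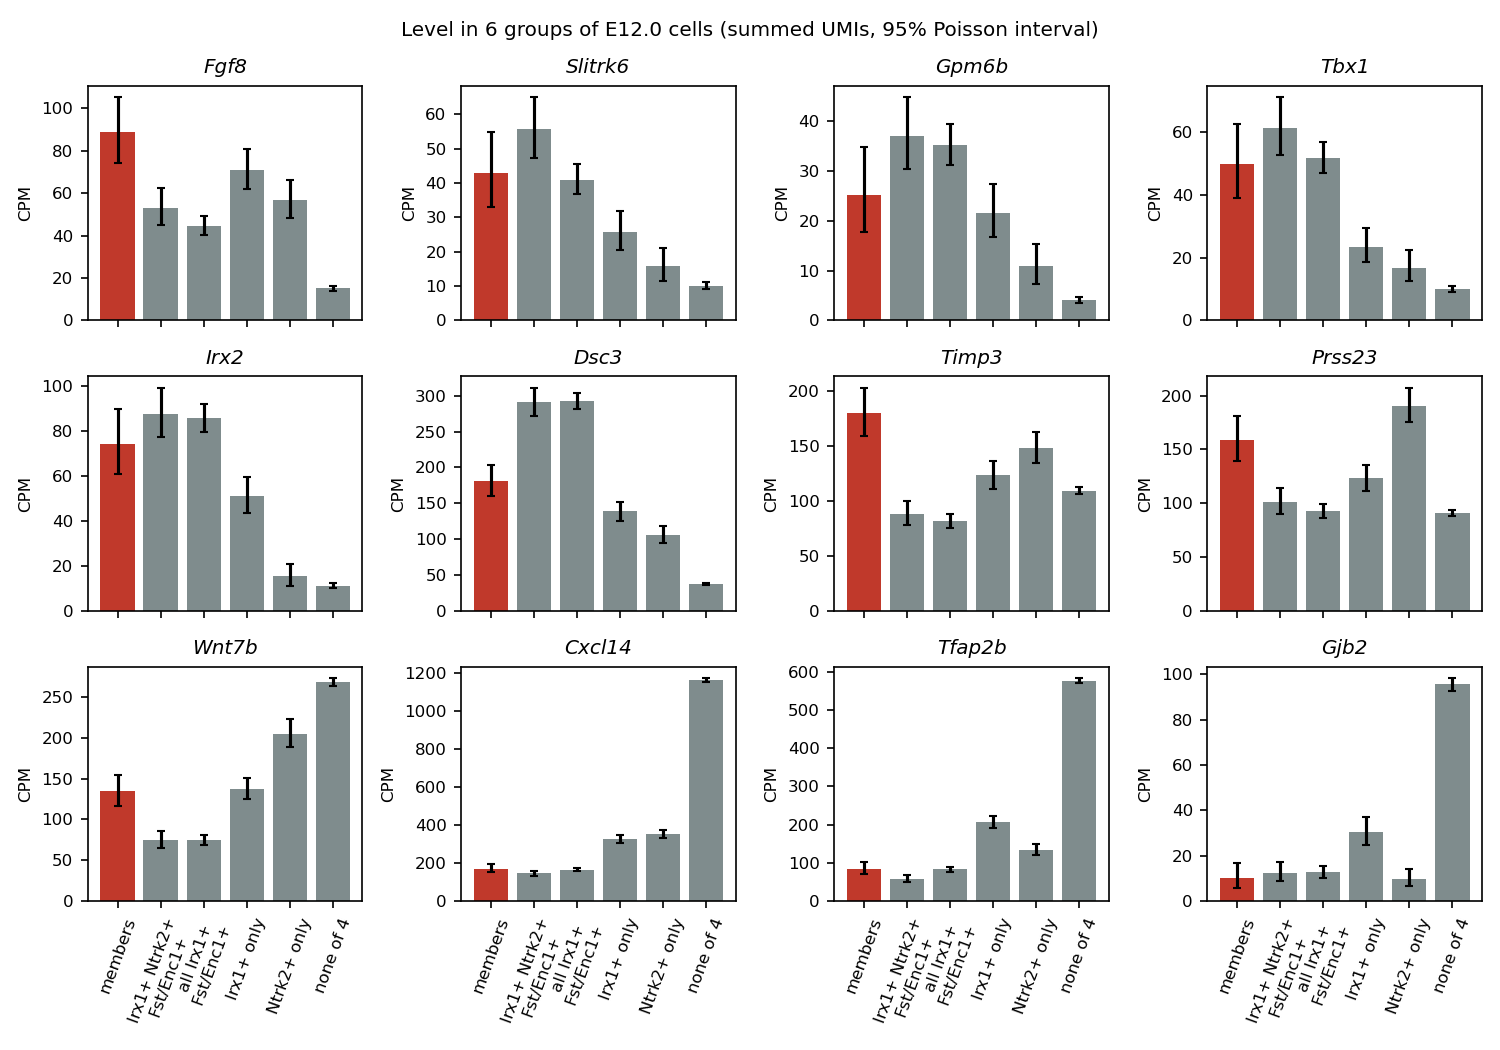
Level in CPM (y axis, linear, summed UMIs with 95% Poisson intervals) of 12 genes in members (red) and 5 other groups of E12.0 cells (grey). Fgf8 and Timp3 are highest in members, Slitrk6, Gpm6b, Tbx1, Irx2 and Dsc3 are lowest in the cells with none of the 4 genes, and Cxcl14, Tfap2b and Gjb2 are highest in the latter.

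Dental genes were examined because the cells are labelled dental. The rule required Irx1 and Ntrk2, both dental markers of the study, so a rise against all other cells does not test that label. Of the 9 dental genes, a list the study drew from this same library and so no independent evidence, 8 could be examined and 6 were raised against all other cells, among them Irx2, Dsc3, Osbpl6, Slitrk6 and Flrt3. Slitrk6 was itself a proposed marker, so 5 of the 6 were genes other than the proposed markers. Osbpl6, at a log2 difference of 0.68 with 5 CPM added, was not called with cells thinned (0.88, with too few cells carrying a UMI), with the rule on thinned UMIs (0.53), in cells with Xist and no Y-linked UMI (0.46) or in cells with a Y-linked UMI (0.54). Slitrk6, at 1.21, stood at 0.90 and 1.06 in the first 2 of these settings and was not called in either. The median of the 8 was 0.91 on the log2 scale, beside 0.0043 over all genes examined. Irx2, which lies near Irx1 on chromosome 13 (GRCm38, chr13:72628820-72634198, with Irx1 at chr13:71957921-71963723), stood at 74.4 CPM (61.1 to 89.7), a ratio of 3.07 (2.51 to 3.73). The desmosomal cadherin gene Dsc3, at 181 CPM (160 to 204), and the adhesion gene Flrt3, at 101 CPM (85.4 to 119), were 1.95-fold and 1.97-fold higher.

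Against Irx1+ Fst/Enc1+ cells the picture differed. None of the 8 dental genes was raised, Dsc3 was lowered 1.62-fold (1.42 to 1.84), and the list median was -0.39. With at least 2 UMIs of Irx1 and Ntrk2 the log2 difference of Dsc3, -0.68, was -0.58 and did not meet the criterion. In the matched set, Dsc3 was again lowered, 1.61-fold (1.40 to 1.85), and the actin regulator gene Wasf1 also met the criterion at 1.60-fold (1.24 to 2.08) lower.

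Both genes of the diastema list were raised in both comparisons. Timp3, an inhibitor of matrix metalloproteinases, had 264 UMIs in 92 members at 180 CPM (159 to 203). It stood at 103 CPM in all other cells and at 81.4 CPM (75.5 to 87.8) in Irx1+ Fst/Enc1+ cells, ratios of 1.75 (1.54 to 1.98) and 2.21 (1.91 to 2.55). The serine protease gene Prss23 stood at 159 CPM (139 to 181), with ratios of 1.59 (1.39 to 1.81) and 1.72 (1.48 to 1.99). Against the matched set, Timp3 was 2.04-fold and Prss23 1.57-fold higher, and both met the criterion. Prss23 was not highest in members, since cells with Ntrk2 only had 191 CPM (175 to 207). The latter had 148 CPM of Timp3 (134 to 163), an interval that overlapped that of members. Both genes together summed to 339 CPM in members and 339 CPM in cells with Ntrk2 only. Against all other cells neither call held with the rule on thinned UMIs, where the log2 differences of Timp3 and Prss23, 0.78 and 0.64, were 0.28 and 0.58, or with at least 2 UMIs of Irx1 and Ntrk2, where they were 0.35 and 0.36. Against Irx1+ Fst/Enc1+ cells, where they were 1.10 and 0.75, both calls held with the rule on thinned UMIs, and with at least 2 UMIs Timp3 stood at 0.68 and still met the criterion, whereas Prss23 at 0.48 did not. This list too was drawn by the study from the same library.

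Initiation knot genes were lower in sum than in Irx1+ Fst/Enc1+ cells and higher than in cells with Ntrk2 only. The 10 genes summed to 98.9 CPM (83.5 to 116) in members, 193 CPM (184 to 202) in Irx1+ Fst/Enc1+ cells, 133 CPM (120 to 147) in the matched set and 113 CPM in all others, and to 66.3 CPM (57.1 to 76.4) in cells with Ntrk2 only. Dkk4 and Fgf20 were at 0 in all 183 members. Of its 5 genes examined against all other cells, none was lowered or raised. Sp5, a WNT target, and Cdkn1a, which encodes the cell cycle inhibitor p21, were lowered against Irx1+ Fst/Enc1+ cells 1.65-fold (1.12 to 2.53) and 1.98-fold (1.49 to 2.67). The Sp5 call was lost with per-cell means, with cells thinned, with the rule on thinned UMIs and at 5% mitochondrial UMIs. It was also lost with at least 2 UMIs of Irx1 and Ntrk2 and in cells of either sex. Members had a ceiling on Shh and a requirement for Ntrk2 that the comparison cells did not have. In the matched set, which had both (the Ntrk2 requirement left 325 of the 985 cells and the Shh ceiling 317), Cdkn1a stood at 40.6 CPM, beside 36.2 CPM in members, and neither gene met the criterion.

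Transcripts of the anterior, aboral epithelium were low. Of 12 genes on the anterior list, 11 were examined against all other cells and 9 were lowered, with a list median of -1.78 on the log2 scale: Cxcl14, Tfap2b, Gata3, Trps1, Msx1, Msx2, Gjb2, Rxfp1 and Wnt9b. The chemokine gene Cxcl14 stood at 171 CPM (151 to 194) in members and 876 CPM in the others, 5.12-fold (4.52 to 5.81) lower, and a UMI was found in 55 members. Tfap2b, an AP-2 transcription factor gene, was 5.02-fold (4.21 to 6.03) lower, and Gjb2 6.95-fold (4.21 to 12.4) lower. The size of the first 2 values moved with the cells used while their direction and call held. On the log2 scale with 5 CPM added, Cxcl14 stood at -2.32 and Tfap2b at -2.26, at -3.29 and -3.16 without called doublets, at -3.44 and -2.88 with the rule on thinned UMIs, at -3.60 and -2.71 in cells with Xist and no Y-linked UMI, and at -1.77 and -1.96 in cells with a Y-linked UMI. None of the 9 anterior genes examined against Irx1+ Fst/Enc1+ cells met the criterion, with Cxcl14 at 166 CPM (157 to 175) there. The roundabout receptor gene Robo2 was 6.47-fold (4.14 to 10.7) lower than in all other cells and the mechanosensitive channel gene Piezo2 also fell in that comparison, at 12.3 against 62.4 CPM. The log2 difference of Robo2, -2.31, was -3.10 without called doublets.

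Genes of the back of the oral cavity were mixed. Barx1, a homeobox gene, had 8 UMIs in 5 members, and its 5.46 CPM (2.36 to 10.8) lay 13.6-fold (6.92 to 31.6) below the 74.5 CPM of all other cells, the lowest ratio among the 159 lowered genes. Barx2 was 5.69-fold (3.85 to 8.80) lower. Of the 5 posterior list genes examined, the transcription factor genes Nkx2-3 and Foxp2 were raised and Tcf7l2 was lowered. Neither raised call held with the rule on thinned UMIs or at 5% mitochondrial UMIs. That of Foxp2 was also lost with cells thinned and in cells with Xist and no Y-linked UMI. Nkx2-3, at 173 CPM (152 to 195), was also raised against Irx1+ Fst/Enc1+ cells, 1.53-fold (1.33 to 1.76), and against the matched set its ratio of 1.47 did not meet the criterion. The Nkx2-3 call against Irx1+ Fst/Enc1+ cells was lost with the rule on thinned UMIs and at 5% mitochondrial UMIs. It was also lost with at least 2 UMIs of Irx1 and Ntrk2 and in cells with Xist and no Y-linked UMI. Salivary gland and tongue genes summed to 4 UMIs over all members, and Foxa1 and Foxa2 were at 0.

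Along the medial to lateral axis, Fgf8, a lateral gene, was raised in both comparisons, and the medial homeobox gene Tlx1 was lowered in both, 2.04-fold and 1.60-fold, at 27.3 CPM (19.5 to 37.2), though not against the 42.7 CPM of the matched set. Isl1, also medial, stood at 73.0 CPM (59.8 to 88.2), against 108 CPM in all other cells and 111 CPM in Irx1+ Fst/Enc1+ cells, without meeting the criterion. The lateral homeobox gene Meis1 was lowered against all other cells, 1.88-fold (1.55 to 2.30), and not against the Irx1+ Fst/Enc1+ cells. An Isl1 or Tlx1 UMI was found in 67 members and an Fgf8 UMI in 81. Both occurred in 30 cells where independent detection would give 29.7, a ratio of 1.01 (0.700 to 1.39), and in Irx1+ Fst/Enc1+ cells the same ratio was 0.608 (0.486 to 0.751). The intervals of both ratios overlapped between 0.700 and 0.751, and the difference was not tested. In all other cells the ratio was 0.824 (0.756 to 0.896), within the members' interval. The expected counts took no account of depth. Members with an Isl1 or Tlx1 UMI had a median of 9044 UMIs, against 6777 in those without. Members with an Fgf8 UMI had 8421, against 6722.5. The part of depth in these ratios was not tested.

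Neurotrophin genes were examined because the members were chosen on a neurotrophin receptor. The receptor genes Ntrk3 and Ngfr were at 0 in all members. Of the ligands of TrkB, Ntf5, which encodes NT-4, stood at 59.4 CPM (47.6 to 73.2) and Bdnf at 17.7 CPM (11.6 to 26.0), and neither met the criterion in either comparison. Ntf3, which encodes neurotrophin 3, stood at 36.2 CPM (27.1 to 47.3) in 45 members. It was raised 1.91-fold (1.37 to 2.62) against Irx1+ Fst/Enc1+ cells and 1.84-fold against the matched set. The first of these calls did not hold with cells thinned or with the rule on thinned UMIs. Ntf3 lay at 32.8 CPM in the epithelium at large.

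Among FGF pathway genes, the ligand Fgf8 was raised in both comparisons and the target Etv5, a transcription factor gene, was lowered in both. Etv5 stood at 12.3 CPM (7.28 to 19.4), 2.93-fold (1.85 to 4.95) below all other cells and 2.49-fold (1.54 to 4.27) below Irx1+ Fst/Enc1+ cells. Its calls did not hold with cells thinned or with the rule on thinned UMIs, although the log2 differences, -1.25 and -1.04, were then -1.32 and -1.16, and -1.32 and -1.08. The feedback phosphatase gene Dusp6 was lowered against the latter alone, 1.63-fold at 31.4 CPM (23.0 to 41.9), and not against the matched set (1.42-fold), and the receptor gene Fgfr2 against all other cells alone, 1.53-fold (1.36 to 1.73). The other 9 FGF genes examined against all other cells, Spry1, Spry2 and Etv4 among them, met the criterion in neither direction.

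Of the WNT ligands, Wnt7b met the criterion in opposite directions. It stood at 134 CPM (116 to 155) in members, 1.61-fold (1.40 to 1.87) below all other cells and 1.80-fold (1.53 to 2.12) above Irx1+ Fst/Enc1+ cells. Its log2 difference with 5 CPM added, -0.67 and 0.81, was -0.17 against all other cells at 5% mitochondrial UMIs and 0.33 against Irx1+ Fst/Enc1+ cells with at least 2 UMIs of Irx1 and Ntrk2, where it no longer met the criterion. Wnt4, at 424 CPM, was raised 1.59-fold (1.46 to 1.74) against the latter, and against the 635 CPM of all other cells it did not meet the criterion. Wnt3 and Wnt9b and the WNT and BMP antagonist gene Sostdc1 were lowered against all other cells. The R-spondin receptor gene Lgr5 had 9 UMIs in 8 members, and its 6.14 CPM (2.81 to 11.7) lay 5.17-fold (2.68 to 11.4) below the 31.8 CPM of Irx1+ Fst/Enc1+ cells. Axin2 and Lef1, readouts of canonical signalling, met the criterion in neither comparison, at 56.0 and 159 CPM.

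In the BMP and activin list 14 genes were examined in each comparison and none met the criterion against all other cells. Against Irx1+ Fst/Enc1+ cells, the BMP antagonist gene Nog was raised 1.65-fold (1.25 to 2.15) and Bambi, which encodes a pseudoreceptor, was lowered 1.61-fold (1.31 to 2.00), and against the matched set, at 1.41-fold and 1.46-fold, neither met the criterion. The targets Id1, Id2 and Id3 met it in neither comparison. Tgfb2, a ligand gene outside this list, stood at 40.9 CPM (31.2 to 52.7) in members and 149 CPM (141 to 157) in Irx1+ Fst/Enc1+ cells, 3.64-fold (2.81 to 4.80) lower, and 2.57-fold (1.95 to 3.45) lower than in the matched set.

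Hedgehog targets were present in members. The rule capped only the Shh UMIs of the cell itself. Gli1, a transcriptional target of the pathway, was raised 2.27-fold (1.84 to 2.78) against all other cells at 67.6 CPM (54.9 to 82.2), in 69 members. Ptch1, which encodes the receptor and is itself a target, stood at 175 CPM (154 to 197), a ratio of 1.52 that missed the criterion with 5 CPM added. It stood at 204 CPM in cells with Ntrk2 only and 134 CPM in cells with Irx1 only. Neither Gli1 nor Ptch1 differed past the criterion from Irx1+ Fst/Enc1+ cells, which stood at 58.3 and 164 CPM. The coreceptor genes Gas1 and Boc were raised against those cells, 1.61-fold (1.24 to 2.08) and 1.76-fold (1.22 to 2.49), Boc not against the matched set, and Gas1 was lowered 2.05-fold (1.63 to 2.59) against all others. Notch1 was lowered in both comparisons, 2.47-fold (1.84 to 3.39) and 1.83-fold (1.34 to 2.54), yet stood above the matched set at 30.7 against 22.4 CPM. No gene of the ectodysplasin and NF-kB list met the criterion in either.

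Other Iroquois genes split by comparison. Irx2 was raised against all other cells alone. Irx3, at 58.0 CPM (46.3 to 71.7), was raised 1.99-fold (1.54 to 2.56) against Irx1+ Fst/Enc1+ cells alone, and 1.71-fold (1.26 to 2.31) against the matched set. Irx5 met the criterion in neither, and Irx6 was at 0.

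Of 9 S phase and mitosis genes, Ccna2, Ccnb1 and Cdk1, which encode cyclins A2 and B1 and their kinase, were raised against all other cells, 1.54-fold (1.30 to 1.81), 1.77-fold (1.54 to 2.02) and 1.78-fold (1.57 to 2.02). None of the 3 calls held with the rule on thinned UMIs, where the log2 differences, 0.59, 0.79 and 0.80, were 0.55, 0.31 and 0.42. At 5% mitochondrial UMIs the calls of Ccna2 and Ccnb1 did not hold, at 0.56 and 0.49. Ccna2, which lay at the edge of the criterion, also missed it with cells thinned, at 0.58, without called doublets, at 0.57, and in cells with a Y-linked UMI, at 0.52. Top2a, the most abundant of the list at 781 CPM (737 to 828), had a ratio of 1.35, and the replication genes Pcna, Mcm2 and Mcm6 had intervals of the ratio that included 1. Cyclin D1 (Ccnd1) was raised 1.66-fold (1.51 to 1.84), and Cdkn1c, the gene of the cell cycle inhibitor p57, was lowered 1.86-fold (1.67 to 2.08). None of the 9 genes met the criterion against Irx1+ Fst/Enc1+ cells.

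Of 13 cell adhesion genes examined, 2 were raised and 2 lowered against all other cells, and 1 was lowered against Irx1+ Fst/Enc1+ cells. Of 13 axon guidance and synaptic adhesion genes, 3 were raised and 4 lowered in the first comparison, and 3 lowered in the second. Over all genes examined, 1.04% were raised and 1.86% lowered in the first comparison, and 0.587% and 1.08% in the second. Basal keratin Krt5 stood at 522 CPM (486 to 560), level with all other cells at 500 CPM and 1.91-fold (1.76 to 2.07) above Irx1+ Fst/Enc1+ cells. Krt8, a keratin of simple epithelium and periderm, was lowered in both comparisons, at 20.5 CPM (13.8 to 29.2), and did not meet the criterion against the 30.1 CPM of the matched set. The periderm and suprabasal list summed to 319 CPM (291 to 350), below the 422 CPM of all other cells and the 465 CPM of Irx1+ Fst/Enc1+ cells and level with the 321 CPM (301 to 342) of the matched set. Of its 7 genes examined against all other cells, 1 was raised and none lowered: the keratin gene Krt17, at 52.5 against 30.1 CPM, 1.75-fold (1.37 to 2.19). That call did not hold among cells with at most 5% mitochondrial UMIs, where the log2 difference was -0.00084, or among cells with a Y-linked UMI, where it was 0.19. The list's gene Ppl, which encodes periplakin, had 8 UMIs in 6 members and was 7.34-fold (3.68 to 17.1) below Irx1+ Fst/Enc1+ cells and 4.04-fold (1.93 to 9.76) below the matched set. The hemidesmosome and laminin genes Col17a1 and Lama3 and the cadherin gene Cdh1 were lowered against all other cells. The ephrin receptor gene Epha4 was raised there, 1.68-fold (1.55 to 1.82), and Epha7, the netrin receptor gene Unc5c and Robo1 were lowered against Irx1+ Fst/Enc1+ cells, Unc5c 2.85-fold (1.93 to 4.37). Of the immediate-early genes that respond to dissociation, Fos, Fosb and Egr1 were lowered 2.30-fold, 2.53-fold and 3.09-fold against all other cells, and Egr1 also against Irx1+ Fst/Enc1+ cells. Neither Egr1 call held at 5% mitochondrial UMIs, where its log2 difference against Irx1+ Fst/Enc1+ cells changed sign. The call against those cells was also lost with cells thinned and with the rule on thinned UMIs. The part of dissociation or sorting in the values of the immediate-early genes was not tested.

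**Figure D3:**
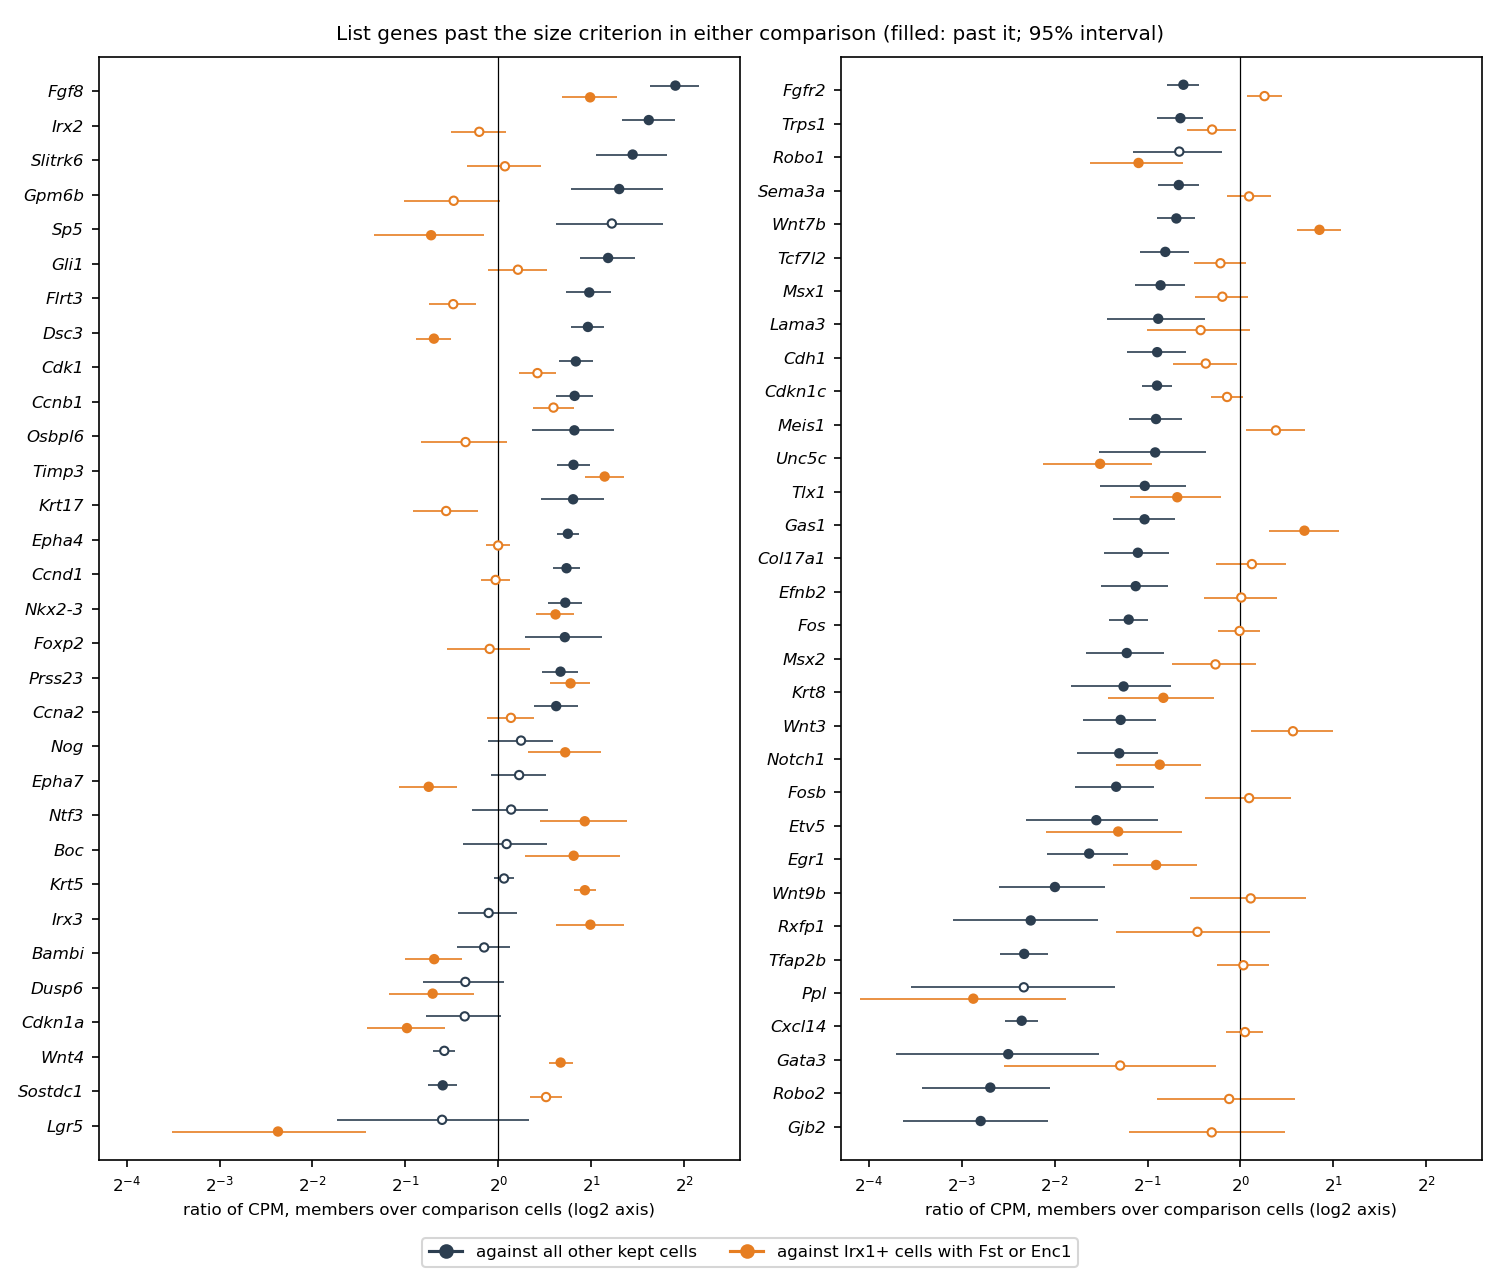
Ratio of CPM, members over comparison cells (x axis, log2 scale), with 95% conditional binomial intervals for list genes past the size criterion against all other kept cells (dark) or against Irx1+ Fst/Enc1+ cells (orange), filled where past it. Fgf8, Timp3, Prss23 and Nkx2-3 are filled to the right in both, Cxcl14, Tfap2b and Gjb2 are far to the left in the first and near 1 in the second, and Wnt7b and Gas1 lie on opposite sides.

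Beyond the lists, the 15 raised genes with the highest ratio against all other cells, after adding 5 CPM, were Fgf8, Zfp536, Zfp385c, Irx2, Pnoc, Chl1, Slitrk6, Tbx1, Mpped1, Ror2, Zfp703, Gli1, Egln3, Gpm6b and Fam188b. Zfp536, a zinc finger gene, had 59 UMIs in 48 members at 40.3 CPM (30.6 to 51.9), 3.80-fold (2.87 to 4.95) higher. Tbx1, a T-box gene needed in pharyngeal development, was 2.59-fold (2.02 to 3.28) higher, and the zinc finger gene Zfp703 2.19-fold (1.89 to 2.51) higher. Of these 15, Fgf8, Pnoc, Chl1 and Egln3 also met the criterion against Irx1+ Fst/Enc1+ cells. Chl1, a neural cell adhesion gene, stood at 66.9 CPM (54.3 to 81.5) in members, 26.1 CPM in all others and 36.7 CPM in Irx1+ Fst/Enc1+ cells. Egln3, which encodes a prolyl hydroxylase of the hypoxia pathway, stood at 34.8 CPM (25.9 to 45.8), 14.6 CPM and 19.6 CPM. The 10 most lowered were Barx1, Cxcl14, Gjb2, Robo2, Tfap2b, Barx2, Piezo2, Samd5, Rxfp1 and Tbx3.

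Against Irx1+ Fst/Enc1+ cells the 15 raised genes with the highest ratio were Timp3, Ppargc1b, Krt5, Fgf8, Otx1, Irx3, Pla2r1, Tgfbr3, Dyrk3, Wnt7b, Fhl1, Chl1, Ntf3, Zfp316 and Cdc25b. The coreceptor gene Tgfbr3 was raised in both comparisons, 1.97-fold (1.52 to 2.52) and 2.00-fold (1.49 to 2.66), and not against the matched set (1.46-fold). Otx1, a homeobox gene, and the receptor gene Pla2r1 moved in opposite directions, raised 2.18-fold and 2.05-fold against Irx1+ Fst/Enc1+ cells and lowered 1.88-fold and 1.76-fold against all others. The 10 most lowered were Ppl, Lmo2, Tgfb2, Lgr5, Atxn1, Dach1, Jakmip2, Unc5c, Pdlim5 and Dpysl5. Lmo2, which encodes a transcriptional cofactor, had 5 UMIs in 4 members at 3.41 CPM (1.11 to 7.96), against 27.5 CPM (24.1 to 31.3) and 16.1 CPM (11.8 to 21.5) in the matched set, and Dach1 stood at 8.87 against 30.3 CPM. With the matched set in place of the Irx1+ Fst/Enc1+ cells, 75 genes were raised and 89 lowered of 8510.

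The edge of the rule was then followed through all 500 cells with Irx1 and Ntrk2 and at most 1 Shh UMI, by their number of Fst and Enc1 UMIs: 183 cells with 0, which are the members, 102 with 1, 124 with 2 to 3 and 91 with 4 or more. Median depth rose from 7304 and 7594 to 8516.5 and 8379 UMIs. Timp3 stood in the order 180, 121, 80.3 and 65.2 CPM, and its intervals in members (159 to 203) and in cells with 1 UMI (98.7 to 146) did not overlap. Fgf8 behaved otherwise, with 88.7 CPM in members and 89.8 CPM (71.1 to 112) in cells with 1 UMI, then 51.2 and 17.8 CPM. Krt5 went from 522 to 408, 301 and 183 CPM, and Wnt7b from 134 to 109, 74.1 and 41.5 CPM. In the other direction Dsc3 went from 181 to 200, 291 and 385 CPM, Tgfb2 from 40.9 to 63.7, 109 and 143 CPM, and Lgr5 from 6.14 to 17.1, 21.2 and 41.5 CPM. Slitrk6 stood at 43.0 and 45.5 CPM in members and cells with 1 UMI, and at 53.8 and 68.7 CPM in the later steps. Among these genes, cells just outside the rule thus had Fgf8, Slitrk6 and Dsc3 levels within the members' intervals. Their Timp3, Krt5 and Wnt7b levels lay below those intervals, and their Tgfb2 and Lgr5 levels above.

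**Figure D4:**
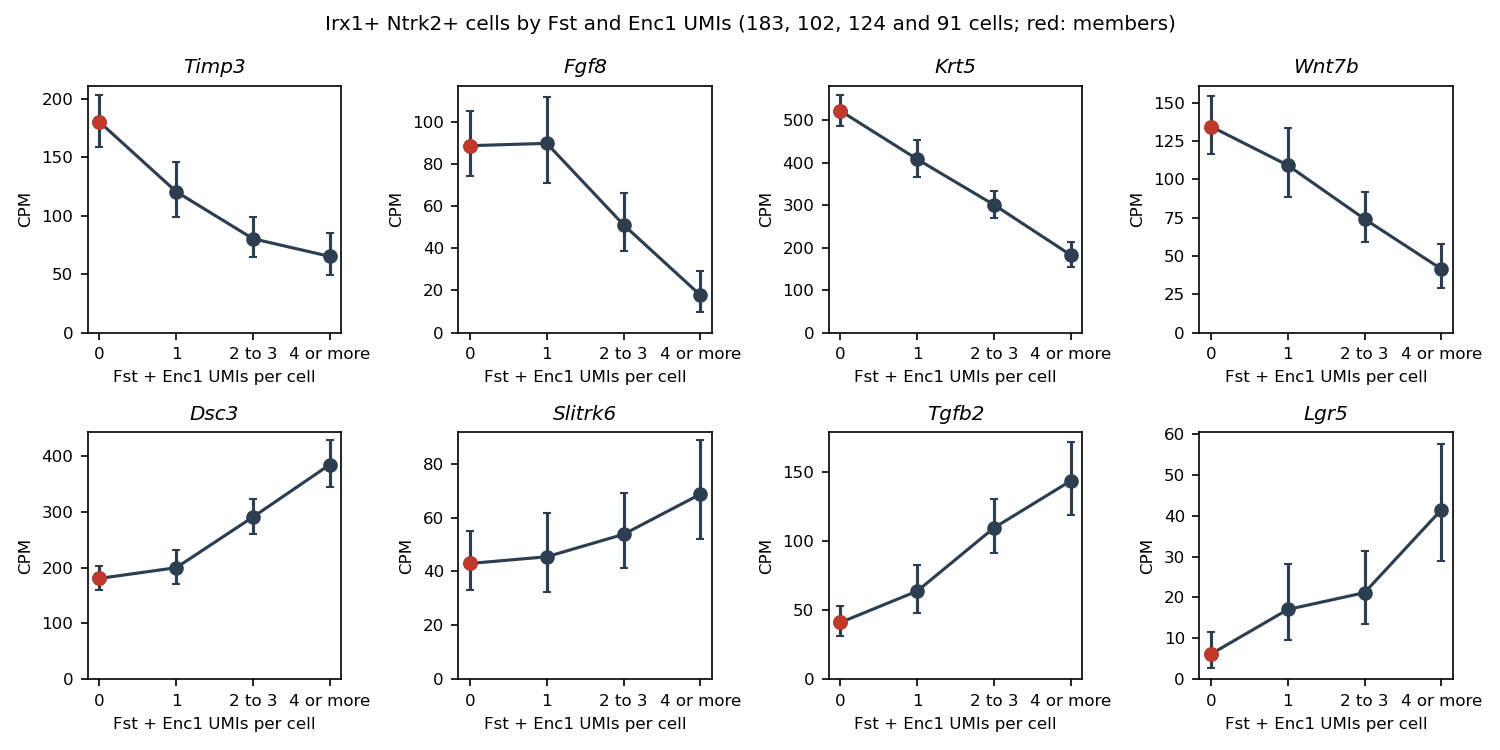
Level in CPM (y axes, linear, 95% Poisson intervals) of 8 genes in Irx1+ Ntrk2+ cells with at most 1 Shh UMI, by their summed Fst and Enc1 UMIs (x axis, 183, 102, 124 and 91 cells; red, members). Timp3, Krt5 and Wnt7b are lower at each step, Fgf8 and Slitrk6 are nearly level over the first step, and Dsc3, Tgfb2 and Lgr5 are higher at each.

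At the other edges, cells with Ntrk2 and no Irx1 (415 cells, otherwise meeting the rule) had 15.4 CPM of Irx2 (11.2 to 20.7), against 69.8 CPM (52.4 to 91.0) in members with 1 Irx1 UMI and 79.5 CPM in members with 2 or more. Slitrk6 followed with 15.8, 33.6 and 53.5 CPM and Tbx1 with 16.8, 31.0 and 70.9 CPM. Cells with Irx1 and no Ntrk2 (426 cells, otherwise meeting the rule) had 123 CPM of Timp3 (111 to 136). Members with 1 Ntrk2 UMI had 200 CPM (170 to 233), and members with 2 or more 155 CPM (127 to 189). In the same order Irx2 stood at 51.1, 46.6 and 109 CPM. The 3 cells excluded by Shh alone were too few to describe.

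Members differed among themselves. A Timp3 UMI was found in 92 of them, and these had a median of 8195 UMIs against 6837 in the 91 without, and called doublets made up 10 and 5 of them. The part of depth in this division was not tested. Dsc3 stood at 111 CPM (89.2 to 137) in members with Timp3 and 263 CPM (225 to 304) in those without. Tbx1 stood at 30.3 CPM (19.4 to 45.1) and 72.7 CPM (53.8 to 96.1). Fgf8 stood at 109 CPM (86.9 to 134) and 65.3 CPM (47.4 to 87.7), intervals that overlapped. Without called doublets Fgf8 stood at 117 CPM (92.3 to 146) and 63.7 CPM (45.3 to 87.1), intervals that did not overlap. UMIs of Timp3 and Fgf8 occurred together in 51 members where independent detection would give 40.7, a ratio of 1.25 (0.967 to 1.57), beside 1.39 in all other cells. That expected count took no account of depth. Tfap2b stood at 119 CPM (96.0 to 145) and 46.0 CPM (31.3 to 65.3). A Cxcl14 UMI was found in 55 members with a median of 8492 UMIs, in which Tfap2b stood at 198 CPM (161 to 240) against 25.2 CPM (16.1 to 37.4) in the other 128 with a median of 6940.5 UMIs, and Isl1 at 123 CPM against 46.1 CPM. Called doublets made up 11 of the 55 and 4 of the 128. Without them, a division added after the data were seen, Tfap2b stood at 86.0 CPM (58.5 to 122) in 44 cells and 26.4 CPM (16.9 to 39.2) in 124, and Isl1 at 128 CPM (93.5 to 170) and 44.0 CPM (31.4 to 59.9). In the division by Timp3, Tfap2b then stood at 60.8 CPM (43.4 to 82.7) and 24.5 CPM (13.7 to 40.4). Members with an Isl1 or Tlx1 UMI (67 cells, a median of 9044 UMIs, 11 called doublets) had 23.3 CPM of Slitrk6 (13.0 to 38.4), against 58.4 CPM (43.1 to 77.5) in those with neither (116 cells, 6777 UMIs, 4 called doublets). Without called doublets the levels were 22.5 CPM (11.2 to 40.2) and 58.9 CPM (43.1 to 78.5), and the part of depth was not tested.

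Clusters built without the 5 rule genes and without the genes of the lists placed the members in 9 of 17 clusters. Of the 183 members, 89 (48.6%) lay in a cluster of 1603 cells led by Fgf8, Timp3, Ntrk2 and Ephb1. Another 36 (19.7%) lay in a cluster of 377 cells led by Gpm6b, Irx1, Ntrk2 and Slitrk6, and 30 (16.4%) in one of 935 cells led by Irx1, Ddit4l, Nrxn3 and Lgr5, in which Fst and Enc1 were also among the 10 leading genes. The 985 Irx1+ Fst/Enc1+ cells were spread over the same 3 clusters as 15.7%, 18.3% and 34.8%, and 12.7% of them, against 2.73% of members, lay in the cluster led by Shh, Tgfb2 and Bmp2. The rule capped Shh and required Ntrk2 in members alone, so these shares are a description. The matched set, bound by both conditions, had 22.1%, 26.5% and 28.1% of its cells in the 3 clusters and 7.89% in the one led by Shh. In no cluster did members exceed 9.55% of the cells (6.78 to 13.0%), the share in the cluster led by Gpm6b. They formed no cluster of their own. The cluster of 1150 cells led by Barx1 and Dmrt2 held no member, which allows a share of up to 0.320% by the exact interval.

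**Figure D5:**
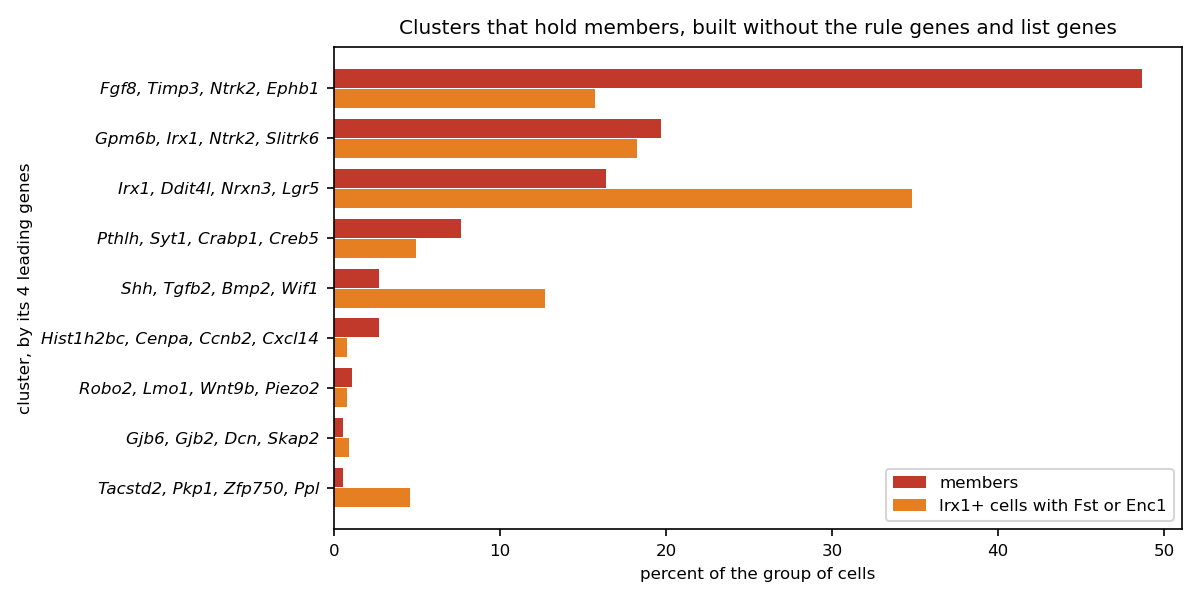
Percent of the 183 members (red) and of the 985 Irx1+ Fst/Enc1+ cells (orange) in each cluster that holds a member (x axis, linear), with clusters named by their 4 leading genes. The cluster led by Fgf8 and Timp3 holds 48.6% of members and 15.7% of the comparison cells, and the one led by Irx1 and Ddit4l 16.4% and 34.8%.

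The same was seen without cluster borders. Among the 20 nearest neighbours of each member in 30 principal components, 7.92% were members, 4.92 times their share of all kept cells, 23.4% were Irx1+ Fst/Enc1+ cells, 2.70 times theirs, and 30.2% were cells with none of the 4 genes. Of the members, 122 had at least 1 other member among these 20. Irx1+ Fst/Enc1+ cells had 38.5% of their own group as neighbours, 4.44 times its share of all kept cells. Members made up 5.55% of their neighbours, 3.45 times the share of members.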

How the data were processed

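The authors deposited raw UMI counts per gene and cell barcode, made with Cell Ranger on GRCm38. Their processing notes name version 2.0.0, whereas the file headers give 3.1.0 for E12.0 and 6.1.2 for E9.5. Of 11663 E12.0 barcodes with 78911671 UMIs, cells with 200 to 5500 genes and at most 10% mitochondrial UMIs were kept, the limits of the study, which removed 294 for mitochondrial share and 14 for gene number. The 11355 cells kept had a median of 6349 UMIs (503 to 21712) and 2776 genes.

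Counts were summed per group with numpy 2.4.6 and scipy 1.17.1 in Python 3.11.15. For shares of cells, each cell was also thinned to 4100 UMIs, and shallower cells were left out. Doublets were called with Scrublet in scanpy 1.11.5 (score threshold 0.180). Clusters came from SCTransform (sctransform 0.4.2) in Seurat 5.3.0 under R 4.3.3, with 30 principal components and resolution 0.9, after 173 of 3000 variable genes were removed because they were rule or list genes.

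Named genes were the rule genes and proposed markers, list genes that met the criterion or were the most abundant of their list, and the 15 most raised and 10 most lowered genes of each comparison. Other genes named, the leading genes of clusters among them, and the Gjb2 Gjb6 background cells were chosen after their values were seen. Members and gene lists were chosen with earlier results of these data known. Some genes are not reported here. Alternatives covered depth, doublets, mitochondrial and gene limits, the rule, the sex of cells, the criterion, the comparison cells and clustering, and the levels within members without called doublets were added after the data were seen.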

Additional observations from a re-analysis of the deposited data

Results flagged for a closer look

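The E9.5 library lay outside the comparisons. Of its 14293 barcodes, 12744 passed the same limits (median 13460.5 UMIs), and 4816 of these had an Epcam UMI. Of the 4816, 58 met the rule for Irx1, Ntrk2, Fst, Enc1 and Shh, a share of 1.204% (0.916 to 1.55%), above the 0.227% (0.135 to 0.359%) of the 7928 cells without an Epcam UMI. In the Epcam cells as a whole Fgf8 stood at 88.7 CPM, Irx1 at 25.2 CPM and Ntrk2 at 5.04 CPM, and Slitrk6 at 0.151 CPM. Stage, sorting and library cannot be told apart between E9.5 and E12.0.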

How the results depend on the processing

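No paired analysis was possible because each stage had 1 library, so leaving out a replicate was not possible either. The share of members, 1.61%, became 1.09% (113 cells) with the rule on thinned UMIs, 1.17% (38 cells) with at most 5% mitochondrial UMIs and 0.326% (37 cells) with at least 2 UMIs of Irx1 and Ntrk2. In the order raised and lowered against all other cells (89 and 159) and raised and lowered against Irx1+ Fst/Enc1+ cells (50 and 92), counts were 155, 201, 134 and 150 with the rule on thinned UMIs, 417, 527, 423 and 559 at 5% mitochondrial UMIs, and 509, 559, 406 and 514 at 2 UMIs. They were 267, 350, 257 and 362 in cells with Xist and no Y-linked UMI, 147, 219, 137 and 200 in cells with a Y-linked UMI, and 14, 44, 1 and 20 at a fold of 2. Dropping the share of cells gave 114, 266, 65 and 141, and adding 1 CPM gave 129, 199, 77 and 142. Settings with fewer members had fewer UMIs behind each level. With cells thinned to 4100 UMIs the counts were 97, 134, 46 and 64, but they shared 50, 83, 16 and 25 genes with those above. Of the 39, 76, 34 and 67 genes lost, 27, 48, 14 and 51 kept a ratio past 1.5, such as Gata3 (-1.78 and -1.70 on the log2 scale), Rxfp1 (-1.82 and -1.61) and Krt8 (-1.08 and -1.09) against all other cells, so a lost call did not by itself mean a smaller difference. The matched set shared 36 of the 50 raised and 47 of the 92 lowered genes. Of the named list genes, the log2 difference changed sign for Krt17 against all other cells (-0.00084) and Egr1 against Irx1+ Fst/Enc1+ cells (0.39) at 5% mitochondrial UMIs, and for Notch1 against the matched set (0.38). The log2 difference moved by more than its counting error, without a change of sign, for 29 of 50 list genes against all other cells and 11 of 29 list genes and proposed markers against Irx1+ Fst/Enc1+ cells at 2 UMIs, for 21 and 5 with the rule on thinned UMIs, and for 20 and 7 at 5% mitochondrial UMIs. Of the 50 list genes called against all other cells, calls were lost for 18 with the rule on thinned UMIs (Krt8, Osbpl6, Slitrk6, Timp3, Prss23, Gata3, Trps1, Rxfp1, Foxp2, Nkx2-3, Etv5, Ccna2, Ccnb1, Cdk1, Lama3, Gpm6b, Efnb2 and Unc5c), 13 with cells thinned (Krt8, Krt17, Osbpl6, Slitrk6, Gata3, Rxfp1, Foxp2, Fgfr2, Etv5, Ccna2, Lama3, Gpm6b and Unc5c), 15 at 5% mitochondrial UMIs (Krt17, Msx1, Gjb2, Foxp2, Nkx2-3, Fgfr2, Wnt7b, Gas1, Ccna2, Ccnb1, Lama3, Gpm6b, Epha4, Sema3a and Egr1), 7 in cells with a Y-linked UMI (Krt17, Osbpl6, Msx1, Sostdc1, Ccna2, Gpm6b and Unc5c), 4 in cells with Xist (Osbpl6, Trps1, Foxp2 and Fgfr2), 4 at 2 UMIs (Timp3, Prss23, Trps1 and Sostdc1) and 1 without called doublets (Ccna2). Of the 27 called against Irx1+ Fst/Enc1+ cells, calls were lost for 14 with the rule on thinned UMIs (Krt8, Ppl, Sp5, Nkx2-3, Tlx1, Ntf3, Dusp6, Etv5, Lgr5, Boc, Gas1, Notch1, Epha7 and Egr1), 10 with cells thinned (Krt8, Ppl, Sp5, Ntf3, Etv5, Lgr5, Boc, Gas1, Notch1 and Egr1), 5 at 5% mitochondrial UMIs (Sp5, Nkx2-3, Dusp6, Epha7 and Egr1), 8 in cells with a Y-linked UMI (Krt8, Sp5, Tlx1, Dusp6, Nog, Boc, Notch1 and Irx3), 5 in cells with Xist (Sp5, Nkx2-3, Tlx1, Wnt4 and Epha7), 13 at 2 UMIs (Krt8, Dsc3, Sp5, Prss23, Nkx2-3, Tlx1, Dusp6, Nog, Wnt4, Wnt7b, Boc, Gas1 and Epha7), 2 without the upper gene limit (Tlx1 and Gas1), 1 with per-cell means (Sp5) and 11 against the matched set (Krt8, Sp5, Cdkn1a, Nkx2-3, Tlx1, Dusp6, Bambi, Nog, Boc, Notch1 and Robo1), and for none without called doublets. Within members, 3 of 14 levels moved without called doublets, all of Tfap2b. The cause was not tested. The cluster that held most members took 48.6% of them, 69.4% at resolution 0.6 and 67.2% with 20 principal components. In the same order it took 15.7%, 34.9% and 35.2% of Irx1+ Fst/Enc1+ cells, and 22.1%, 48.9% and 49.8% of the matched set.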
